A study of Homo sapiens with 6 samples.

Results

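The 41 genes described here make, activate, store and oxidise fatty acids in HK-2, a human cell line derived from the proximal tubule of the kidney. They were chosen by symbol from a written list of lipid enzymes, carriers and receptors, and all 41 stood among the 31831 genes of the count table. Of these, 38 passed the filter on low counts and were compared, out of 17142 genes tested. Transcripts were counted by RNA-seq in 6 libraries, 3 of cells with the control vector (HG-NC) and 3 of cells overexpressing hnRNP-F (HG-OE), an RNA-binding protein. Cells of both groups had been in 30 mM glucose for 72 h, a condition read from the methods because the labels of the single libraries do not name the glucose. On that reading high glucose was shared by all libraries, and no normal-glucose library was analysed here. The labels call the control a control plasmid, whereas the methods describe lentiviral vectors for both groups. The study calls its libraries biological replicates and describes parallel wells for each group, but the labels do not tie the libraries to separate cultures, and p-values measure only the spread between these libraries.

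Fatty acid synthesis starts in the cytosol, where citrate is cleaved to acetyl-CoA, acetyl-CoA is carboxylated to malonyl-CoA, and fatty acid synthase joins these units to palmitate. Desaturases and elongases then modify the chain. Oxidation runs the other way: a fatty acid is activated to acyl-CoA, carried into mitochondria as acylcarnitine, and shortened by repeated rounds of dehydrogenation, hydration, renewed oxidation and thiolysis, while peroxisomes shorten the chains that mitochondria handle poorly. Proximal tubule cells in the kidney draw much of their energy from fatty acid oxidation, and the PPAR nuclear receptors, together with the coactivator PPARGC1A, drive many genes of this pathway.

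The count totals ran from 25507595 to 29444841 per library. HNRNPF (GRCh38 chromosome 10, 43385617 to 43409186, minus strand) was read in CPM, the library's counts of a gene divided by its scaled total, per 1000000, and was measured at 304, 319 and 311 CPM in HG-NC and 430.5, 452 and 423 CPM in HG-OE. All HG-OE libraries lay above all HG-NC libraries, with log2 fold change 0.48, SE 0.0388, adjusted p = 2.80e-07, a 1.40-fold difference. These are counts of the human gene, and the species of the insert was not settled from the sources used here, so that this value may not measure the insert. The cells held the renal and epithelial transcripts PAX8, CDH6 and KRT8 in every library, but LRP2 and AQP1, markers of the tubule in the kidney, had at most 17 and 7 counts. HG-OE replicate 3 stood apart from the rest. The 15 hepatocyte markers other than SERPINA1 summed to 374 CPM there and to 2.66 to 13.4 CPM in the other 5 libraries, with 12 of the 15 highest in that library and ALB at 4359 counts against 0 to 78. SERPINA1 itself was high in every library, at 275, 264 and 258 CPM in HG-NC and 457, 458 and 395 CPM in HG-OE. With it the list summed to 267 to 464 CPM in the other libraries and to 768 CPM in HG-OE replicate 3. The 7 squamous markers listed summed to 47.7 CPM in that library and to at most 0.138 CPM elsewhere, and KRT17 had 724 counts against 0 to 1. Among the other 5 libraries HG-NC replicate 3 had the highest hepatocyte sum without SERPINA1, with ALB at 78, FGA at 65 and HP at 34 counts. Whether these transcripts came from other cells or from cross-contamination cannot be told from the counts and was not tested. In bulk libraries, fewer cells of a type and less RNA per cell cannot be told apart. Values without HG-OE replicate 3 are therefore given beside each of the 41 genes whose call or sign differed without it.

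Promoter windows of RefSeq (GRCh38.p14, 250 bases before to 50 after a transcription start) were found for 36 of the 41 genes, in 62 windows, and none was held for FASN, ACAA1, EHHADH, DGAT1 and DGAT2. The window of HADHA, which encodes the alpha subunit of the mitochondrial trifunctional protein, is shown because it overlaps that of HADHB, the beta subunit, which lies on the other strand and moved the same way. The window lies at chr2:26244583-26244882 on the minus strand, and the 194 bases common to both windows are in capitals.
HADHA: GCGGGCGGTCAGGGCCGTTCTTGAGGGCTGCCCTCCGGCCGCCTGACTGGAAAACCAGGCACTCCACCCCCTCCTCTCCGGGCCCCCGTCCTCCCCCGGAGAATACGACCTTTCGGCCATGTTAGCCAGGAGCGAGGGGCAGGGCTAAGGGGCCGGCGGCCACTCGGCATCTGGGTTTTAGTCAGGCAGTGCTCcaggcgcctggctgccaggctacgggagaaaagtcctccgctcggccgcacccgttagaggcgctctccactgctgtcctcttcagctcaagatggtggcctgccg
The windows of SCD and SCD5 are shown because these stearoyl-CoA desaturases differed in opposite directions, with the CCAAT boxes in capitals, read as ATTGG where the box lies on the other strand. SCD lies at chr10:100346983-100347282 on the plus strand and SCD5 at chr4:82798747-82799046 on the minus strand.
SCD: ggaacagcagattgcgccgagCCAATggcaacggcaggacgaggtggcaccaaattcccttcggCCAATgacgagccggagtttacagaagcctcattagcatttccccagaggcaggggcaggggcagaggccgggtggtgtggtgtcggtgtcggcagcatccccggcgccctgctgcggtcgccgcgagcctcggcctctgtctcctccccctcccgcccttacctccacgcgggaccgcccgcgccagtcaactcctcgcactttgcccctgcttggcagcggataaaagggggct
SCD5: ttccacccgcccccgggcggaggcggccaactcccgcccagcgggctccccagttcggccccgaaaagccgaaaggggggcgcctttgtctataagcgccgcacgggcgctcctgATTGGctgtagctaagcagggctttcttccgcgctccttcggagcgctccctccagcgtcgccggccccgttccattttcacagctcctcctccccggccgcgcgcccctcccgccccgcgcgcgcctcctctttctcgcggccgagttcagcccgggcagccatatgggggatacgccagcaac
The window of ACAA2, a thiolase of mitochondrial oxidation, is shown for its match to the DR1 element that PPAR receptors bind, in capitals. The gene rose in HG-OE, whereas ACSL1, the other gene past the threshold with such a match, fell. The ACAA2 window lies at chr18:49813484-49813783 on the minus strand.
ACAA2: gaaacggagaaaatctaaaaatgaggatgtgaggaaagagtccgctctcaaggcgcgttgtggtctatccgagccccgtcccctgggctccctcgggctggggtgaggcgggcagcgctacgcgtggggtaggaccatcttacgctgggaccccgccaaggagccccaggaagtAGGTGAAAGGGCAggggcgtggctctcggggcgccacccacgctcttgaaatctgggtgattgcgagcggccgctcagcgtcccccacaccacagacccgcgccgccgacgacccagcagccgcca
DR1 was searched on both strands with up to 2 mismatches. It was present in 3 of the 62 windows (4.84%, those of ACAA2, ACSL1 and CD36) and in 2.97% of all 35116 windows in the table. The SREBP site TCACNCCAC was present in 2 windows (3.23%, ACSL1 and PNPLA2) against 1.13% of all windows, the E-box CACGTG in 3 (4.84%, ELOVL5, PLIN2 and PPARGC1A) against 7.26%, and CCAAT in 19 (30.6%) against 34.6%. These shares rest on a few windows each, several genes had more than 1 window, and a match is a description of letters, not of binding.

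Of the 38 genes tested, 27 passed an adjusted p of 0.05 (edgeR's quasi-likelihood test, adjusted by Benjamini-Hochberg over all genes), 18 of them higher and 9 lower in HG-OE. Over all genes tested, 51.8% passed, 25.9% higher and 25.9% lower. Most lipid genes here were well expressed, and among all genes with a mean of at least 100 counts the share past the threshold was 61.9%. The share among the lipid genes was 71.1%, and among 112 further lipid genes described below it was 61.6%. The difference from the background was not tested and is not read as particular to the lipid genes. Nearly all differences were small: 25 of the 27 were under 2-fold, and the 2 at or above it were FADS2 and ACAA1. Calls at 2-fold covered 5.82% of all genes tested and 2.72% of those with a mean of at least 100 counts. The HG-NC and HG-OE libraries did not overlap for 27 of the 38 lipid genes (71.1%), against 59% of all genes tested and 67.8% of those with a mean of at least 100 counts. The median log2 fold change was 0.17 over the 38 genes and 0.01 over all genes tested. The lipid genes had a median of 0.10 once HG-OE replicate 3 was left out.

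**Figure D1:**
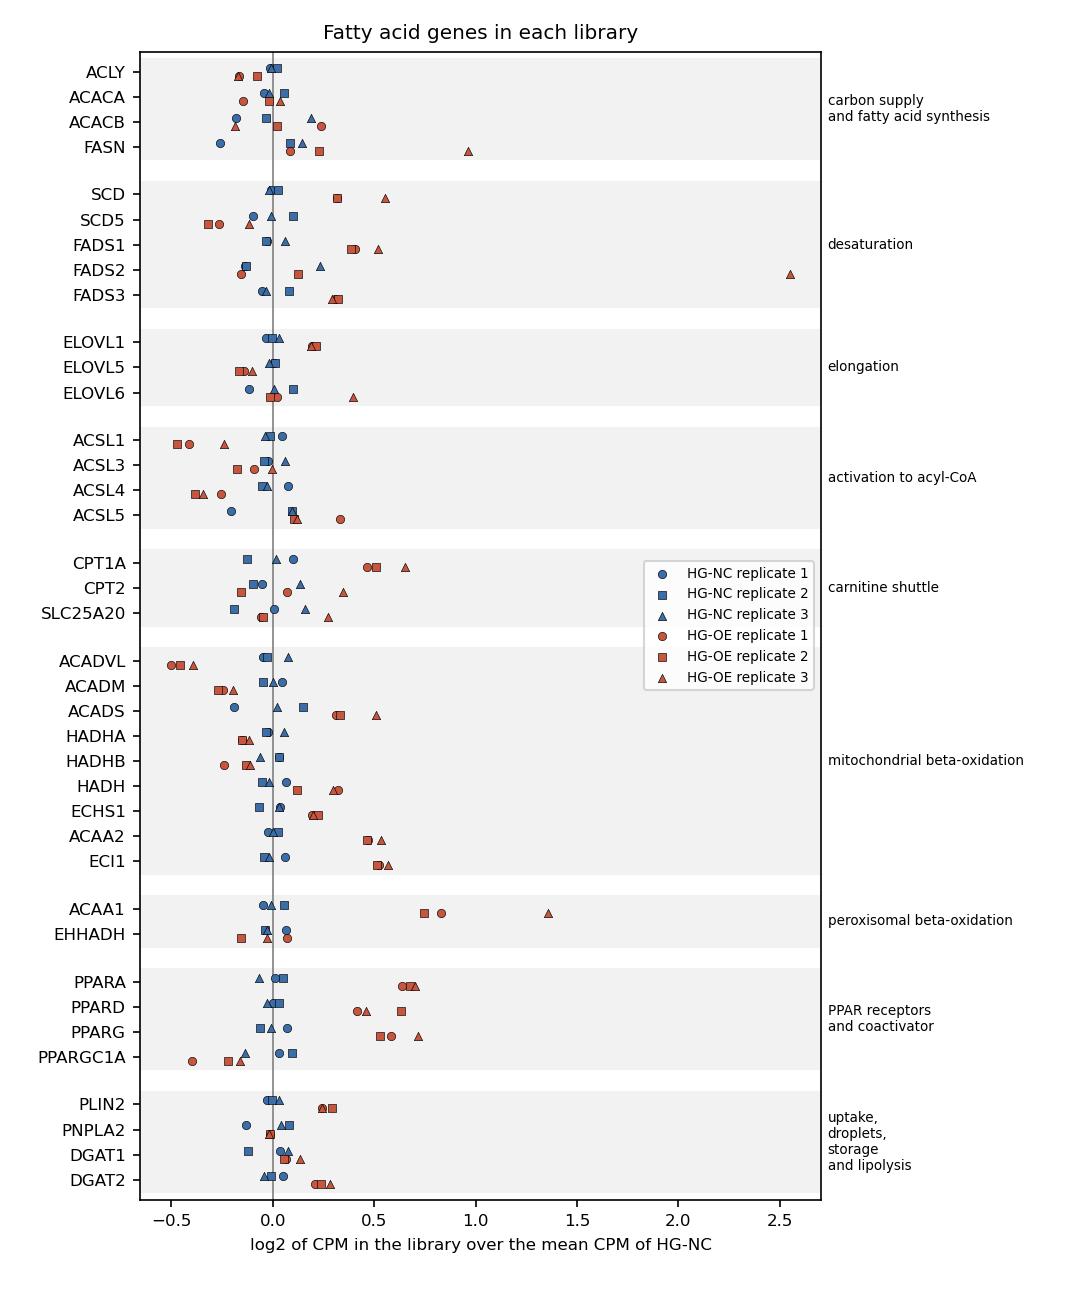
Each point is 1 library, placed by the log2 of its CPM over the mean CPM of HG-NC, with the 38 tested genes in rows by role; blue points are HG-NC and red points HG-OE, and the marker shape gives the replicate number. The red triangles of FADS2 and FASN lie far to the right of the other HG-OE libraries, whereas the red points of the PPAR receptors lie together to the right of all blue points.

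**Figure D2:**
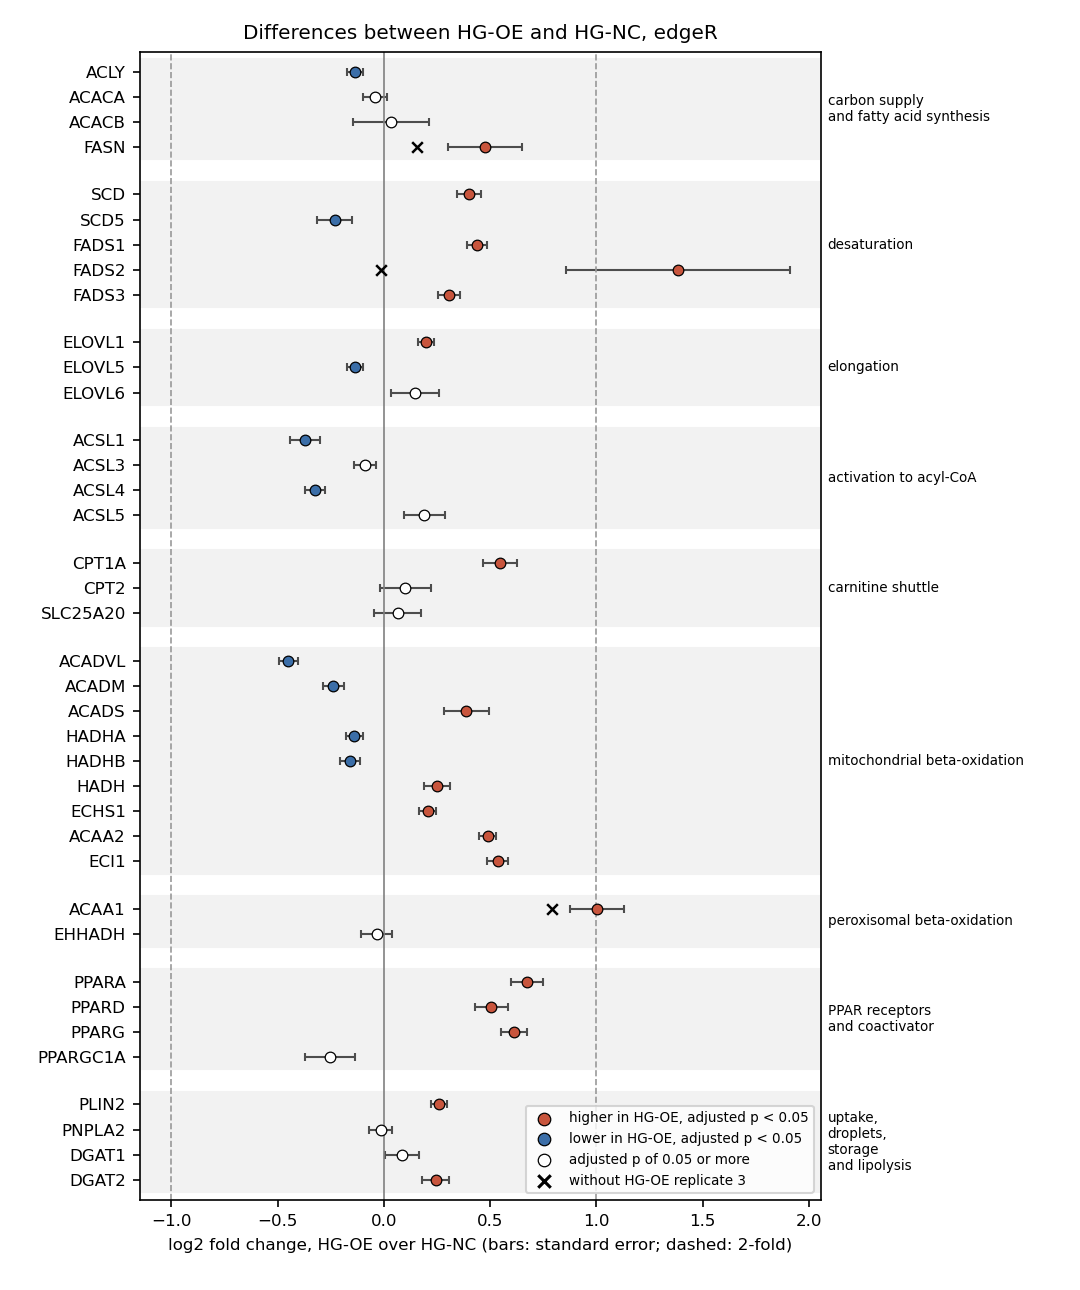
The log2 fold change of HG-OE over HG-NC from edgeR is drawn for each of the 38 genes with its standard error as a bar, filled where the adjusted p was under 0.05, and a cross gives the value without HG-OE replicate 3 for the 3 genes in which that library stood apart. FADS2 drops from 1.38 to -0.01 without it, and ACAA1 from 1.00 to 0.79.

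The supply and synthesis enzymes did not move together. ACLY, which cleaves citrate to acetyl-CoA, was measured at 318, 327 and 319 CPM in HG-NC and 287, 305 and 285 CPM in HG-OE. The 3 HG-OE libraries were all below the HG-NC libraries by a narrow margin, and the gene fell (log2 fold change -0.14, SE 0.0386, adjusted p = 0.00897). The acetyl-CoA carboxylases, which make malonyl-CoA, did not pass the test. ACACA, the cytosolic form, had 50.7, 54.2 and 51.5 CPM in HG-NC and 47.0, 51.5 and 53.5 CPM in HG-OE, and the groups overlapped (log2 fold change -0.04, SE 0.0566, adjusted p = 0.574). ACACB, the form at the outer mitochondrial membrane, was scarce at 2.60, 2.88 and 3.36 CPM in HG-NC and 3.48, 2.99 and 2.59 CPM in HG-OE, again with overlap (log2 fold change 0.03, SE 0.18, adjusted p = 0.886). The annotated span of ACACB overlaps that of UNG on the same strand, and UNG had 2219 to 2745 counts against 66 to 101 for ACACB, so reads in the shared part cannot be told apart here.

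FASN, the fatty acid synthase, passed the test only narrowly. Its level was 54.1, 68.8 and 71.5 CPM in HG-NC and 68.7, 75.9 and 126 CPM in HG-OE. Only HG-OE replicate 3 stood clear, while replicate 1 lay inside the range of HG-NC and replicate 2 just above it. The fit gave log2 fold change 0.48, SE 0.17, adjusted p = 0.0339, and without HG-OE replicate 3 the log2 fold change was 0.16 with an adjusted p of 0.0347. The call was lost without any 1 of the HG-NC libraries (adjusted p of 0.0552 to 0.185) and under the DESeq2 Wald test (adjusted p = 0.252).

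Of the 5 desaturases, 4 rose and 1 fell, 1 of the rises resting on a single library. SCD, which turns saturated into monounsaturated acyl-CoA and was the most abundant desaturase, had 362, 370.4 and 360.1 CPM in HG-NC and 453, 453 and 534 CPM in HG-OE. Every HG-OE library exceeded every HG-NC library, replicate 3 the most (log2 fold change 0.40, SE 0.0557, adjusted p = 4.29e-05; 0.32 without HG-OE replicate 3). Its paralog SCD5 went the other way, at 16.9, 19.4 and 18.0 CPM in HG-NC and 15.0, 14.5 and 16.7 CPM in HG-OE. The groups did not overlap, though HG-OE replicate 3 lay just below the lowest HG-NC library, and the fit gave log2 fold change -0.23, SE 0.0840, adjusted p = 0.0325. That call was lost without HG-NC replicate 2 or 3 and without HG-OE replicate 1 or 2, with adjusted p of 0.0831 to 0.148. The neighbours of SCD5 on chromosome 4, tested genes within 10 Mb with a mean of at least 100 counts, had a median log2 fold change of -0.36, and relative to them SCD5 lay higher by 0.13 without passing the test (adjusted p = 0.233). Per length of transcript, SCD exceeded SCD5 by 16.3 ± 0.938-fold in FPKM in HG-NC and by 25.2 ± 0.779-fold in HG-OE (SD, n = 3 each), with no overlap. Both windows printed above hold CCAAT boxes.

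The 3 FADS genes lie side by side on chromosome 11, and FADS1 and FADS2 encode desaturases of polyunsaturated fatty acids. FADS1 was measured at 103, 102 and 109 CPM in HG-NC and 139, 137 and 149.9 CPM in HG-OE, and its HG-OE libraries were all higher (log2 fold change 0.44, SE 0.0462, adjusted p = 3.50e-06). FADS3 had 36.2, 39.6 and 36.6 CPM in HG-NC and 46.4, 46.8 and 45.8 CPM in HG-OE, with the HG-OE libraries close together and all higher (log2 fold change 0.31, SE 0.0528, adjusted p = 0.000259). FADS2, the entry enzyme of the polyunsaturated pathway, differed in kind. It was measured at 7.67, 7.68 and 9.91 CPM in HG-NC and 7.55, 9.17 and 49.3 CPM in HG-OE. HG-OE replicate 1 lay just below the lowest HG-NC library and replicate 2 inside the HG-NC range, and replicate 3 alone held 74.8% of the FADS2 counts of the HG-OE group. The fit over all libraries gave log2 fold change 1.38, SE 0.53, adjusted p = 0.0405, whereas without HG-OE replicate 3 the log2 fold change was -0.01 with an adjusted p of 0.937, so the 2-fold call rests on that 1 library. It was also lost without any 1 HG-NC library (adjusted p of 0.0875 to 0.147) and under DESeq2 (adjusted p = 0.208). FADS1 and FADS2 overlap on opposite strands and FADS2 overlaps FEN1 on the same strand. The libraries were directional, but the strand setting of the counting is not given in the sources used here. The summed level of the 5 desaturases was 525, 539 and 534 CPM in HG-NC and 661, 661 and 796 CPM in HG-OE, most of it from SCD in every library.

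**Figure D3:**
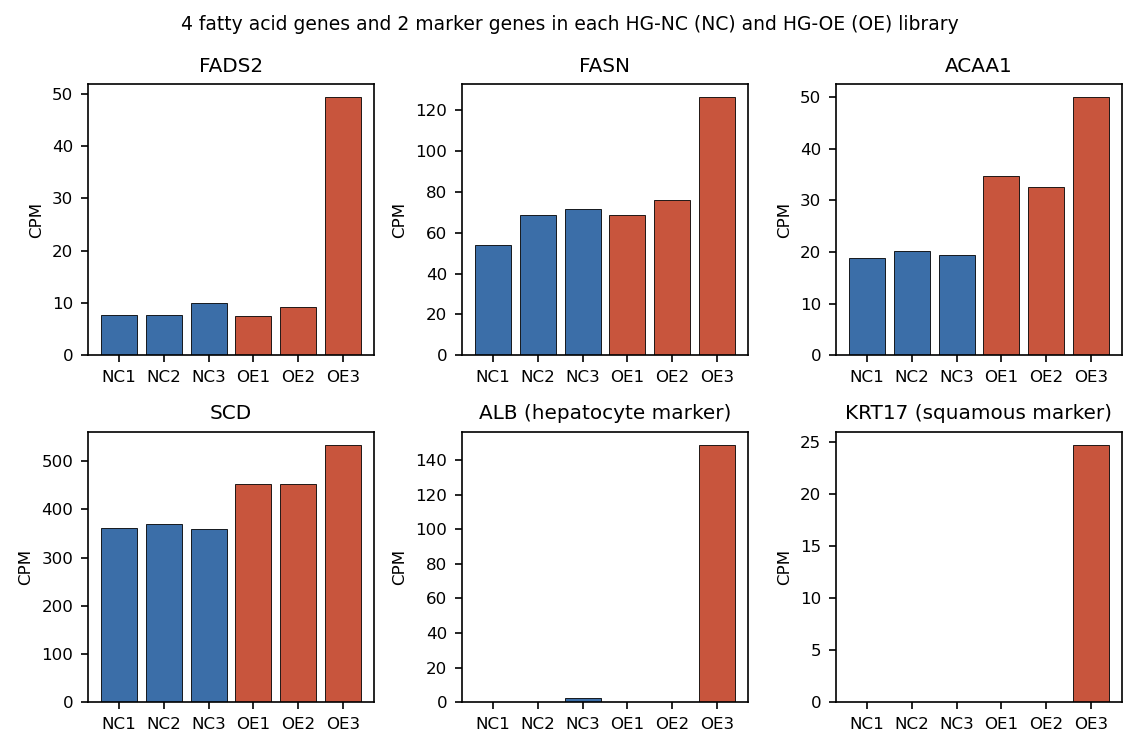
Bars give the CPM of FADS2, FASN, ACAA1, SCD and the marker genes ALB and KRT17 in each library, blue for HG-NC (NC) and red for HG-OE (OE). FADS2 at 49.3 CPM, FASN at 126 CPM and ACAA1 at 49.95 CPM are highest in HG-OE replicate 3, the library that also holds ALB and KRT17, and the part of those marker transcripts in the lipid values was not tested.

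By the rule used here, a distance of over 0.5 on the log2 scale from the mean of HG-OE replicates 1 and 2 that also exceeds the distance between these, HG-OE replicate 3 stood apart for FASN, FADS2 and ACAA1, each time higher. These were 3 of 38 lipid genes, and among all genes with a mean of at least 100 counts the share was 2.23%, or 276 of 12365. For the other 35 lipid genes the distance was at most 0.39. HG-OE replicate 3 lay above the mean of HG-OE replicates 1 and 2 for 28 of the 38 lipid genes. Among all genes with a mean of at least 100 counts this held for 46.3%. Of the adipocyte markers, LEP had 0 to 1 counts, PLIN1 0 to 4 and CIDEC 8 to 21, the last highest in HG-OE replicate 3, and their part in the lipid values was not tested.

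The elongases, which lengthen acyl chains, differed in both directions. ELOVL1, which acts on very long saturated chains, was measured at 147, 149.9 and 153 CPM in HG-NC and 171, 174 and 171 CPM in HG-OE. All HG-OE libraries were above all HG-NC libraries (log2 fold change 0.20, SE 0.0376, adjusted p = 0.000554). ELOVL5, which lengthens polyunsaturated chains, had 179, 179.6 and 176 CPM in HG-NC and 162, 159 and 167 CPM in HG-OE, with the HG-OE libraries below those of HG-NC (log2 fold change -0.14, SE 0.0375, adjusted p = 0.00812). ELOVL6, which takes palmitate to stearate, gave 11.4, 13.3 and 12.4 CPM in HG-NC and 12.5, 12.3 and 16.3 CPM in HG-OE, and only replicate 3 of HG-OE left the range of HG-NC (log2 fold change 0.15, SE 0.11, adjusted p = 0.294; 0.00 without that library). The ratio of ELOVL1 to ELOVL5 in FPKM was 1.28 ± 0.0404 in HG-NC and 1.61 ± 0.0506 in HG-OE (SD, n = 3 each).

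Among the acyl-CoA synthetases 2 fell, the most abundant included, and none rose past the threshold over all libraries, although ACSL5 did without HG-OE replicate 3. ACSL4, which prefers arachidonate, was measured at 266, 244 and 248 CPM in HG-NC and 212, 194 and 199 CPM in HG-OE. The HG-OE libraries were all lower (log2 fold change -0.32, SE 0.0459, adjusted p = 4.84e-05), while its neighbours on chromosome X had a median log2 fold change of 0.01. ACSL1 had 28.04, 26.9 and 26.4 CPM in HG-NC and 20.4, 19.6 and 23.0 CPM in HG-OE, and its HG-OE libraries were also all lower (log2 fold change -0.37, SE 0.0704, adjusted p = 0.000587). ACSL3, found on lipid droplets, was measured at 69.9, 68.9 and 74.1 CPM in HG-NC and 66.5, 62.9 and 70.9 CPM in HG-OE with overlap between the groups (log2 fold change -0.09, SE 0.0523, adjusted p = 0.175), and without HG-OE replicate 3 it passed the test at a log2 fold change of -0.13 (adjusted p = 0.0231). ACSL5 lay in the opposite direction at 13.9, 17.1 and 17.1 CPM in HG-NC and 20.2, 17.2 and 17.4 CPM in HG-OE, where the groups did not overlap, by a small margin, and the test was not passed (log2 fold change 0.19, SE 0.0966, adjusted p = 0.118). Without HG-OE replicate 3 it passed at 0.22 (adjusted p = 0.0342), and relative to its neighbours it passed as well (adjusted p = 0.0420). The 4 synthetases together summed to 378, 357 and 366 CPM in HG-NC and to 319, 294 and 311 CPM in HG-OE.

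CPT1A, the carnitine palmitoyltransferase of the outer mitochondrial membrane and the gate of long-chain oxidation, rose. Its level was 18.4, 15.7 and 17.4 CPM in HG-NC and 23.7, 24.4 and 27.0 CPM in HG-OE, with every HG-OE library above every HG-NC library (log2 fold change 0.55, SE 0.0787, adjusted p = 5.80e-05). The later steps of the shuttle did not pass the test. CPT2, on the inner membrane, had 11.9, 11.5 and 13.5 CPM in HG-NC and 12.9, 11.1 and 15.6 CPM in HG-OE (log2 fold change 0.10, SE 0.12, adjusted p = 0.503), and SLC25A20, the carnitine-acylcarnitine carrier, had 14.4, 12.6 and 16.1 CPM in HG-NC and 13.8, 13.9 and 17.4 CPM in HG-OE (log2 fold change 0.07, SE 0.11, adjusted p = 0.646), both with overlapping groups. Without HG-OE replicate 3 both turned sign, CPT2 to -0.04 (adjusted p = 0.771) and SLC25A20 to -0.05 (adjusted p = 0.676). CPT1C, the brain-type form, had 0 to 9 counts and was not tested. The FPKM ratio of CPT1A to CPT2 was 2.15 ± 0.209 in HG-NC and 2.96 ± 0.398 in HG-OE (SD, n = 3 each).

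Within mitochondrial beta-oxidation all 9 genes tested passed the threshold, but 5 rose and 4 fell, and the libraries of the groups did not overlap for any of them. Among all genes with a mean of at least 100 counts, 61.9% passed and 67.8% did not overlap. The 4 that fell act on long or medium chains, although HADH, which also takes medium chains, rose, as did CPT1A at the entry of long chains. ACADVL, the very-long-chain acyl-CoA dehydrogenase, had the largest fall of the 38 genes, at 155, 157 and 168 CPM in HG-NC and 113, 116 and 122 CPM in HG-OE. No HG-OE library came near the HG-NC range (log2 fold change -0.45, SE 0.0454, adjusted p = 2.35e-06). ACADM, the medium-chain dehydrogenase, was measured at 57.3, 53.8 and 55.6 CPM in HG-NC and 46.8, 46.0 and 48.5 CPM in HG-OE, again with the HG-OE libraries all lower (log2 fold change -0.24, SE 0.0490, adjusted p = 0.00109). Its span overlaps that of RABGGTB on the same strand, which had 2081 to 2848 counts and was itself lower in every HG-OE library.

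The trifunctional protein carries out the last 3 steps on long chains, and the transcripts of both its subunits fell. HADHA was measured at 207, 205 and 218 CPM in HG-NC and 189, 189 and 194 CPM in HG-OE (log2 fold change -0.14, SE 0.0391, adjusted p = 0.00873). HADHB had 107, 108 and 101 CPM in HG-NC and 89.2, 96.2 and 97.2 CPM in HG-OE (log2 fold change -0.16, SE 0.0467, adjusted p = 0.0111). In each case the HG-OE libraries lay below the HG-NC libraries, the gaps being small. The FPKM ratio of HADHA to HADHB was 1.97 ± 0.145 in HG-NC and 2.00 ± 0.0823 in HG-OE (SD, n = 3 each), overlapping between the groups. These genes share the promoter region printed above and the same neighbours on chromosome 2, whose median log2 fold change was -0.32, so that relative to them HADHA and HADHB were higher by 0.18 and 0.16. The HADHA call was lost without HG-NC replicate 3 (adjusted p = 0.0756) and the HADHB call without HG-NC replicate 1 or 2 or HG-OE replicate 1 (adjusted p of 0.0514 to 0.0605).

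Genes that rose included ACADS, the short-chain dehydrogenase, at 8.57, 10.9 and 9.91 CPM in HG-NC and 12.2, 12.3 and 13.9 CPM in HG-OE. Its HG-OE libraries were all higher (log2 fold change 0.39, SE 0.10, adjusted p = 0.00689). HADH, the dehydrogenase of medium and short 3-hydroxyacyl-CoA, was measured at 41.02, 37.8 and 38.7 CPM in HG-NC and 48.9, 42.6 and 48.2 CPM in HG-OE, with HG-OE replicate 2 closest to HG-NC (log2 fold change 0.25, SE 0.0618, adjusted p = 0.00385). ECHS1, the short-chain enoyl-CoA hydratase, had 173, 161 and 173 CPM in HG-NC and 194, 198 and 194 CPM in HG-OE, and all HG-OE libraries were higher (log2 fold change 0.21, SE 0.0404, adjusted p = 0.000741).
ACAA2, the mitochondrial thiolase whose promoter window is printed above, was measured at 81.6, 84.3 and 82.9 CPM in HG-NC and 115, 114 and 120.1 CPM in HG-OE. The HG-OE libraries were close together and well above HG-NC (log2 fold change 0.49, SE 0.0407, adjusted p = 3.92e-07). ECI1, the isomerase that lets unsaturated chains enter the cycle, had 43.0, 40.1 and 40.8 CPM in HG-NC and 59.4, 58.9 and 61.3 CPM in HG-OE, also without overlap (log2 fold change 0.54, SE 0.0495, adjusted p = 1.02e-06). The division by chain length was made after the values were seen and was not tested. ACADL, the long-chain dehydrogenase, had 0 to 5 counts and was not tested. The summed level of the 9 tested genes and ACADL was 874, 858 and 888 CPM in HG-NC and 867, 874 and 899 CPM in HG-OE, so that the rises and falls left the total within an overlapping range. The FPKM ratio of ACADM to ACADS went from 1.09 ± 0.165 to 0.699 ± 0.0351 and that of ACADVL to ACADM from 8.23 ± 0.464 to 7.10 ± 0.179 (SD, n = 3 each).

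In the peroxisome, ACAA1, the thiolase of the straight-chain cycle, showed the largest rise among the 38 genes that every HG-OE library shared. It was measured at 18.8, 20.2 and 19.4 CPM in HG-NC and 34.7, 32.7 and 49.95 CPM in HG-OE. HG-OE replicates 1 and 2 were already far above HG-NC, and replicate 3 was higher still. The fit gave log2 fold change 1.00, SE 0.13, adjusted p = 1.76e-05, at the edge of 2-fold, and 0.79 with an adjusted p of 6.8e-14 without HG-OE replicate 3. Its neighbours on chromosome 3 had a median log2 fold change of 0.43, and relative to them ACAA1 was higher by 0.58. EHHADH, the bifunctional enzyme of the same organelle, had 24.5, 22.8 and 22.9 CPM in HG-NC and 24.6, 21.0 and 23.0 CPM in HG-OE, with overlap (log2 fold change -0.03, SE 0.0714, adjusted p = 0.715).

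All 3 PPAR receptors rose. PPARA, linked to oxidation genes in liver and kidney, was measured at 12.4, 12.8 and 11.8 CPM in HG-NC and 19.2, 19.7 and 20.04 CPM in HG-OE. Those libraries separated cleanly (log2 fold change 0.67, SE 0.0752, adjusted p = 5.83e-06). PPARD, the widely expressed form, had 14.8, 15.1 and 14.5 CPM in HG-NC and 19.7, 22.9 and 20.4 CPM in HG-OE, also separated (log2 fold change 0.51, SE 0.0786, adjusted p = 0.000111). PPARG, known for lipid storage, had 35.7, 32.6 and 33.8 CPM in HG-NC and 50.9, 49.2 and 55.9 CPM in HG-OE (log2 fold change 0.61, SE 0.0603, adjusted p = 1.90e-06), but its neighbours on chromosome 3 had a median of 0.43 and relative to them it was higher by 0.19 (adjusted p = 0.0222). PPARGC1A, the coactivator, lay in the opposite direction at 7.55, 7.91 and 6.73 CPM in HG-NC and 5.62, 6.35 and 6.62 CPM in HG-OE, without overlap but short of the threshold (log2 fold change -0.25, SE 0.12, adjusted p = 0.0877), and passed it without HG-OE replicate 3 at -0.30 (adjusted p = 0.0379). The summed level of these 4 genes was 70.5, 68.4 and 66.8 CPM in HG-NC and 95.5, 98.2 and 103 CPM in HG-OE.

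Among the storage genes, PLIN2, the coat protein of lipid droplets, rose. It was measured at 273, 278 and 284 CPM in HG-NC and 329, 341 and 329 CPM in HG-OE, and every HG-OE library was higher (log2 fold change 0.26, SE 0.0368, adjusted p = 4.99e-05). DGAT2, which makes triglyceride from diglyceride, had 20.5, 19.7 and 19.2 CPM in HG-NC and 22.8, 23.3 and 24.1 CPM in HG-OE, likewise without overlap (log2 fold change 0.24, SE 0.0645, adjusted p = 0.00608). DGAT1, which catalyses the same reaction, had 15.7, 14.1 and 16.1 CPM in HG-NC and 15.99, 15.9 and 16.8 CPM in HG-OE and did not pass the test (log2 fold change 0.09, SE 0.0802, adjusted p = 0.3998). PNPLA2, the adipose triglyceride lipase that starts droplet breakdown, was measured at 58.9, 68.2 and 66.5 CPM in HG-NC and 64.1, 64.1 and 63.7 CPM in HG-OE, and the HG-OE libraries fell inside the range of HG-NC (log2 fold change -0.01, SE 0.0548, adjusted p = 0.840). CD36, the fatty acid uptake receptor, had 1 to 10 counts and was not tested.

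On the scale of FPKM, which divides by transcript length, the most abundant of the 41 genes in HG-NC was ECHS1 at 119 ± 4.91, followed by SCD at 62.1 ± 0.843, ACLY at 55.2 ± 0.737 and ELOVL1 at 53.6 ± 1.40 (SD, n = 3 each). ACLY and ELOVL1 were neighbours in that order whose ranges overlapped in HG-NC. Of the FPKM ratios between related genes, 18 were computed, and 12 did not overlap between the groups. Among single genes with a mean of at least 100 counts 67.8% did not overlap, and no matching share was computed over other gene pairs. The count of ratios therefore cannot be read as particular to these genes. The exact two-sided permutation test of 3 against 3 libraries cannot go below p = 0.1, and its smallest value adjusted over the 18 ratios was 0.15.

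**Figure D4:**
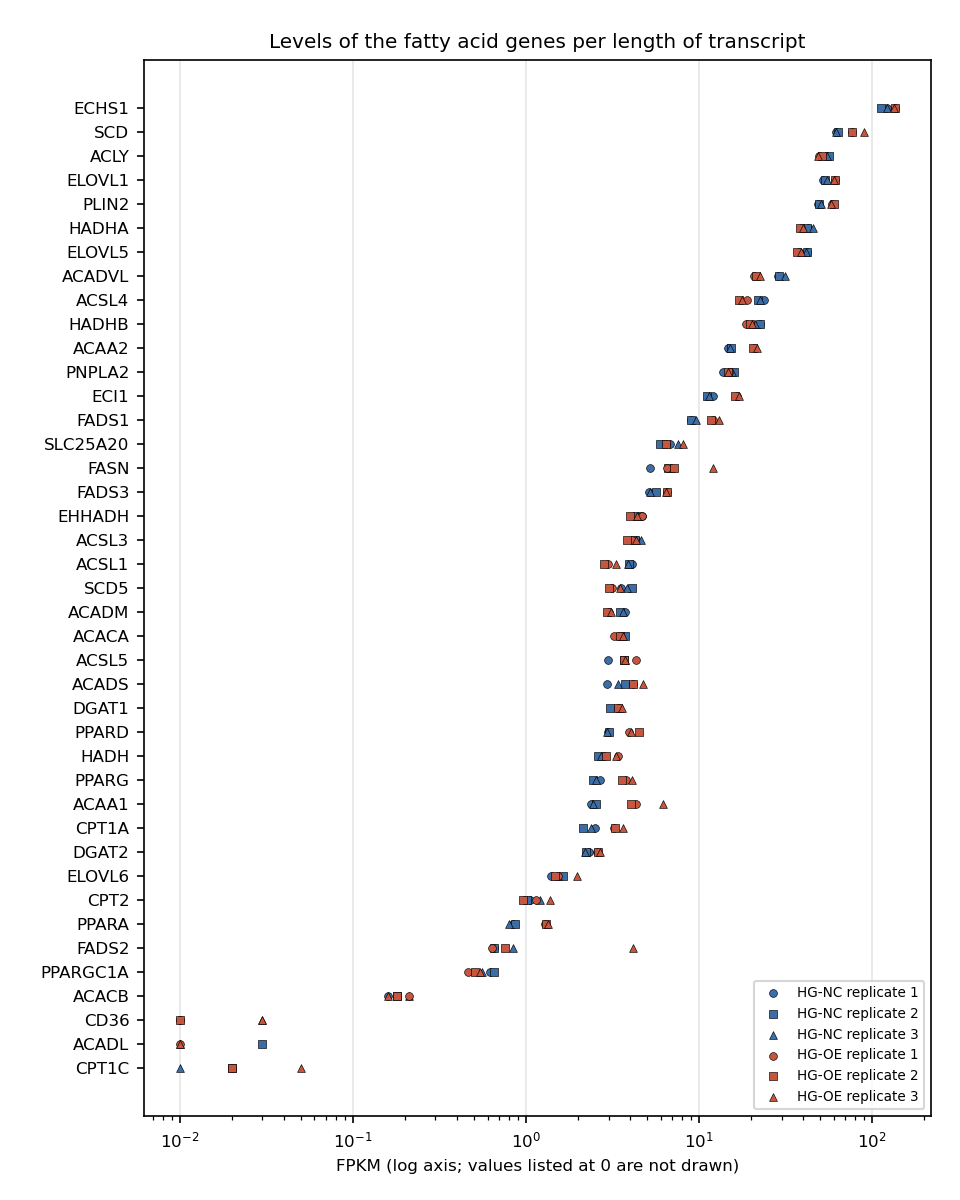
FPKM of the 41 genes in each library on a log axis, ordered by the mean of HG-NC, with blue for HG-NC, red for HG-OE and the marker shape for the replicate number. The levels run from ECHS1 at 113 to 136 FPKM down to CD36, ACADL and CPT1C at 0.05 FPKM or less, and the FADS2 point of HG-OE replicate 3 at 4.13 lies apart from the other 5 between 0.64 and 0.84.

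The differences of the lipid genes were set beside those of their chromosomal neighbours. For each of the 38 genes, tested genes within 10 Mb that had a mean of at least 100 counts served as neighbours, 26 to 258 of them, and their log2 fold changes were summarised by the median, which ran from -0.36 at SCD5 to 0.52 at SLC25A20. The gene and its neighbours had the same sign in 30 of 38 cases, and in 22 of the 27 past the threshold, with Pearson r = 0.62 and Spearman rho = 0.67 across the 38 genes, a description with no test because all values come from the same libraries. When the neighbours' median was taken as the reference, 21 genes were higher and 4 lower at an adjusted p under 0.05. The 4 lower genes were ELOVL5, ACSL4, SLC25A20 and ACADVL. These counts and the agreement in sign are given without the matching shares over all genes. They cannot be read as particular to the lipid genes. FADS2, FADS3, SCD5, ACSL1, ACADM and DGAT2 no longer passed relative to their neighbours, while ACACA, ELOVL6, ACSL5 and SLC25A20 did. ACLY, HADHA and HADHB, lower in the plain comparison, were then among the genes that were higher, ACLY by 0.10. Genes whose change was far from that of their neighbours included HADH, at 0.25 against -0.30, and PLIN2, at 0.26 against -0.10. SLC25A20 showed the reverse, with 0.07 against 0.52.

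**Figure D5:**
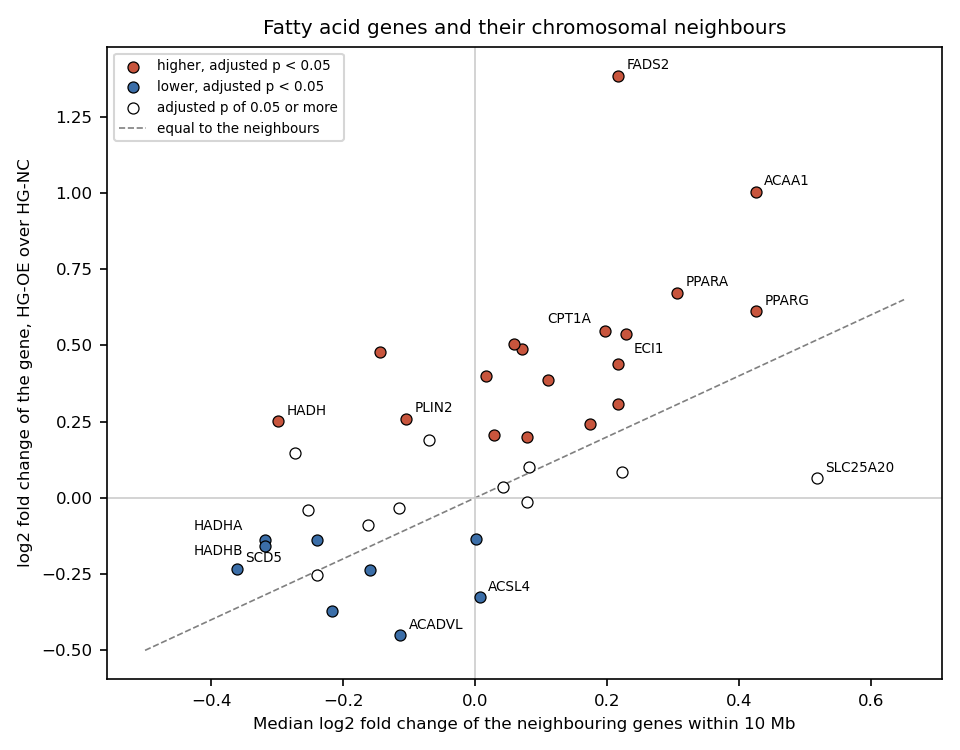
The log2 fold change of each of the 38 genes is plotted against the median of its neighbours within 10 Mb, with red for genes higher and blue for genes lower at an adjusted p under 0.05 and a dashed line where both are equal. HADHA, HADHB and SCD5 sit at the low end and ACAA1 and PPARG at 0.43, whereas SLC25A20 lies far below the line.

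A list of 130 further lipid genes, none of them among the 41, was read from the same fit, and 112 were tested. Of these 46 were higher and 23 lower, with a median log2 fold change of 0.14. The share past the threshold was 61.6%, close to the 61.9% of all genes with a mean of at least 100 counts. Among 27 other oxidation genes, such as carnitine transferases, electron transfer flavoproteins and peroxisomal enzymes, 19 were higher (70.4%) and 3 lower, with a median of 0.30, where 25.9% of all genes tested and 29.7% of those with a mean of at least 100 counts were higher. Of 24 regulators of lipid genes, 6 were higher and 8 lower. In the list 4 genes reached 2-fold. PHYH, which starts the alpha-oxidation of phytanate in peroxisomes, had 305, 280 and 314 counts in HG-NC and 756, 764 and 683 counts in HG-OE and rose in every HG-OE library (log2 fold change 1.17, SE 0.0826, adjusted p = 8.98e-08). PLIN4, a droplet coat protein, was scarce at 10, 9 and 14 counts in HG-NC and 35, 45 and 40 counts in HG-OE but did not overlap (log2 fold change 1.73, SE 0.29, adjusted p = 0.000234). SLC27A3, an acyl-CoA synthetase, had 27, 31 and 27 counts in HG-NC and 57, 54 and 97 counts in HG-OE, with replicate 3 of HG-OE the highest (log2 fold change 1.17, SE 0.26, adjusted p = 0.00193; 0.85 without it). SLC27A2, the very-long-chain acyl-CoA synthetase, was the 1 that fell, at 25, 31 and 18 counts in HG-NC and 11, 5 and 15 counts in HG-OE (log2 fold change -1.37, SE 0.40, adjusted p = 0.0107).

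Of 4 regulators read whatever their values, only SREBF2 passed the test. SREBF1, the regulator of fatty acid synthesis genes, had 1374, 1657 and 1591 counts in HG-NC and 1680, 1677 and 2174 counts in HG-OE (log2 fold change 0.14, SE 0.0850, adjusted p = 0.188; 0.01 without HG-OE replicate 3), with replicate 3 of HG-OE the highest library. SREBF2, which governs sterol genes, had 1856, 2158 and 2239 counts in HG-NC and 2570, 2542 and 2774 counts in HG-OE and rose slightly (log2 fold change 0.22, SE 0.0498, adjusted p = 0.00241). MLXIPL, the carbohydrate response factor, was scarce at 9, 10 and 15 counts in HG-NC and 8, 20 and 57 counts in HG-OE, with most HG-OE counts in replicate 3, and did not pass the test (log2 fold change 1.19, SE 0.56, adjusted p = 0.0884; 0.19 without HG-OE replicate 3). PRKAA1, a catalytic subunit of AMP-activated kinase, had 1029, 1084 and 1113 counts in HG-NC and 1126, 1052 and 1276 counts in HG-OE, with overlap once scaled to depth (log2 fold change -0.02, SE 0.0649, adjusted p = 0.797). Relative to the chromosomal neighbours 3 of these 4 calls changed. SREBF2, whose neighbours had a median of 0.32, turned to -0.11 and no longer passed (adjusted p = 0.0980), while SREBF1 was higher by 0.28 (adjusted p = 0.0162) and PRKAA1 passed at -0.23 (adjusted p = 0.0113).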

How the data were processed

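RNA-seq counts per gene were taken from 6 libraries of HK-2 cells, 3 of HG-NC and 3 of HG-OE, grouped by the labels. Per the labels and the study's methods, libraries were directional and poly(A)-selected; the authors trimmed the reads, mapped these to GRCh38 by HISAT2 and deposited whole-number counts of uniquely mapped reads, without normalization, and FPKM values rounded to 2 decimals. The methods name ComBat_seq, and whether that correction entered these counts is not stated. Counting tool and strand setting are not given in the sources used here.

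Counts were compared in R 4.3.3 with edgeR 4.0.16 (TMM, default low-count filter, quasi-likelihood test, group as the only term, Benjamini-Hochberg adjustment over 17142 genes). The common biological coefficient of variation was 0.0683. A 2-fold call needed an adjusted p under 0.05 and at least a 2-fold change. CPM values were scaled by TMM, and SEs come from the same fit. FPKM was used only for levels between genes, for ratios and in limma 3.58.1, and DESeq2 1.42.0 was an alternative. Positions come from GENCODE on GRCh38. Counts of 17142 tested genes were also simulated with 200 changed genes to check the fits. In these data 8887 genes passed the threshold and HG-OE replicate 3 stood apart, neither of which was simulated. The simulation therefore cannot give the error rate of the fits in these data. Library replicates differed by more than sampling noise, with a chi-square of 2.18 to 3.48 per degree of freedom within groups apart from HG-OE replicate 3 (11.1 and 11.5). This spread exceeds counting error alone, but it does not show whether the libraries came from separate cultures. A count of 0 allows up to 3 counts, for counting error only.

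The genes and lists were chosen with earlier results of these data known. All 41 genes, HNRNPF, further lipid genes at 2-fold and SREBF1, SREBF2, MLXIPL and PRKAA1 are named. Alternatives covered size factors, filters, DESeq2, limma, a fold threshold, the replicate block, chromosomal neighbours and leaving out each library.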

Additional observations from a re-analysis of the deposited data

How the results depend on the processing

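Of 608 values (38 genes under 16 alternatives), 535 kept their direction and their side of the threshold, 47 lost the call, 5 gained it and 21 turned sign. In all, 10 genes past the threshold kept the call in every alternative run (SCD, FADS1, CPT1A, ACADVL, ACAA2, ECI1, ACAA1, PPARA, PPARD and PPARG), and 16, those 10 included, kept it in all but the test against a fold of 1.2. Under that test, 4160 genes in all, 10 lipid genes (9 higher, 1 lower) and 38 of the further lipid genes passed, and 1 lipid gene was called at 2-fold, because the threshold is stricter by construction. Genes called at 2-fold numbered 997, and 1539 without a filter, 617 with at least 10 counts in every library, and 144 and 138 in limma on log2(FPKM + 1) with and without a filter, where the added 1 shrinks low values. The 2 lipid genes at 2-fold became 1 without a filter, 0 under DESeq2, 0 in each limma fit, 0 with the neighbours' median removed, and 0 to 2 when 1 library was left out (0 without HG-NC replicate 1 or HG-OE replicate 3, 1 without HG-NC replicate 2 or 3). With the neighbours' median removed, 4 lipid genes were lower at an adjusted p under 0.05. In that fit these values turned sign: ACLY to 0.10, ACACA to 0.21, ACACB to -0.0079, SCD5 to 0.13, ACSL3 to 0.074, SLC25A20 to -0.45, HADHA to 0.18, HADHB to 0.16, EHHADH to 0.081 and DGAT1 to -0.14. Leaving out 1 library gave ranges that crossed 0 for ACACA (-0.081 to 0.0089), ACACB (-0.081 to 0.14), FADS2 (-0.013 to 1.79), CPT2 (-0.039 to 0.21), SLC25A20 (-0.052 to 0.16), EHHADH (-0.090 to 0.023) and PNPLA2 (-0.073 to 0.028). The causes were not tested. Replicate numbers do not pair the samples (correlations of same-numbered libraries -0.0077 to 0.034), and with the replicate block 27 lipid genes passed and 1 was called at 2-fold. Lipid genes past the threshold numbered 23 to 29 when 1 library was left out. Depth limited CPT1C, ACADL and CD36, and 3 libraries a group limit the rest.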
